A study of Saccharomyces cerevisiae with 6 samples.

Results

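Guanosine 2922 of the yeast 25S ribosomal RNA carries a methyl group on its ribose that is placed by the protein Spb1, encoded by SPB1 (YCL054W), without a guide RNA. The site, Gm2922, was taken by its position in the 25S rRNA and not by any measured value, together with the 25 positions from 2910 to 2934 that surround it. It is 1 of 37 ribose methylation sites of the large subunit (LSU, 25S) rRNA and 1 of 55 in both subunits, so that 54 other sites were available for comparison. The site lies at position 461397 of chromosome XII on the minus strand, and the surrounding positions span 461385 to 461409, inside the mature non-coding 25S rRNA (460923 to 464318). Coordinates are those of the deposited annotation, and the build behind them was not given in the sources used here.

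Most ribose methyl groups of yeast rRNA are placed by box C/D ribonucleoproteins, in which a small nucleolar RNA (snoRNA) pairs with the rRNA and positions the methyltransferase fibrillarin (Nop1 in yeast). Spb1 is instead a methyltransferase of its own, a nucleolar assembly factor that is bound to precursors of the large subunit and uses S-adenosylmethionine as the methyl donor. Its target sits in the A-loop of the peptidyl transferase centre, the hairpin that pairs with the CCA end of the aminoacyl-tRNA in the ribosomal A site. The nucleotide 5' of it, Um2921, is methylated through the box C/D snoRNA snR52 (SNR52), and the nucleotide 3' of it, Ψ2923, is a pseudouridine made through the box H/ACA snoRNA snR10 (SNR10). The deposited annotation lists a base methylation next to Ψ2923 as well, so that 4 modified nucleotides follow each other and the other 21 positions of the window carry no annotated modification.

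Ribose methylation was read by RiboMeth-seq, in which RNA is broken into short fragments under denaturing conditions, the fragments are sequenced, and each read end marks a bond that was cut. A methylated ribose protects its bond, which then lacks read ends. The 6 samples of Saccharomyces cerevisiae formed 6 groups with 1 sample each. Chromatin-associated RNA came from the wild-type strain BY4741. The knock-in strain YWD680 gave gel-purified LSU rRNA and, as a separate sample, whole-cell RNA, and the knock-out strain YWD486 gave whole-cell RNA. Gel-purified small subunit (SSU, 18S) rRNA and gel-purified LSU rRNA came from BY4741. The knock-in strain bears an artificial snoRNA on a plasmid, aimed at LSU-U2954, which lies 32 nucleotides from Gm2922. The knock-out strain bears the snR67-snR53 region on a plasmid, with 1 substitution that prevents methylation of LSU-G2619, 303 nucleotides away. By these labels no group was altered in Spb1. Chromatin-associated RNA holds rRNA that is still being made or has just been made, and setting it against mature rRNA of BY4741 asks which methyl groups are already present at that stage.

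Every group was a single sample, and no p-value is given. For whole-cell RNA of the knock-in strain 2 files, called runs here, were deposited beside their sum; they were the only repeat measurement and counted as 1 sample. Depth on the LSU rRNA was 18489246 read ends in chromatin, against 1229170 in wild-type mature LSU rRNA, and the remaining libraries lay between 70381 (the wild-type SSU library, which was not purified for 25S rRNA) and 1197181 (knock-in mature LSU rRNA). The intervals below cover counting error only, and they treat each read end as independent. Reads that carry no molecular identifiers cannot be taken as independent molecules, so the intervals may be too narrow.

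Gm2922 was almost free of read ends in mature and whole-cell rRNA and was cut readily in chromatin-associated RNA. In chromatin the bond had 3791 read ends, against 5 in wild-type mature LSU rRNA. Knock-in mature LSU rRNA had 13, the combined knock-in whole-cell runs had 2 (0 in run 1 and 2 in run 2), and both the knock-out and the wild-type SSU library had 0. Depth differed between these libraries, so each count was set against the mean over the 21 unmodified positions of the window. That mean was 7859 read ends in chromatin, 399 in knock-in mature LSU rRNA, 222 in the knock-in whole-cell runs, 65.0 in the knock-out, 16.9 in the wild-type SSU library, and 386 read ends in wild-type mature LSU rRNA. On this scale Gm2922 stood at 48.2% of the unmodified positions in chromatin, at 3.26% and 0.901% in knock-in mature LSU and whole-cell rRNA, at 0% in both the knock-out and the wild-type SSU library, and at 1.29% in wild-type mature LSU rRNA. Chromatin was the one library in which the site was not nearly empty, and its level lay far outside the range of the other 5 libraries.

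**Figure D1:**
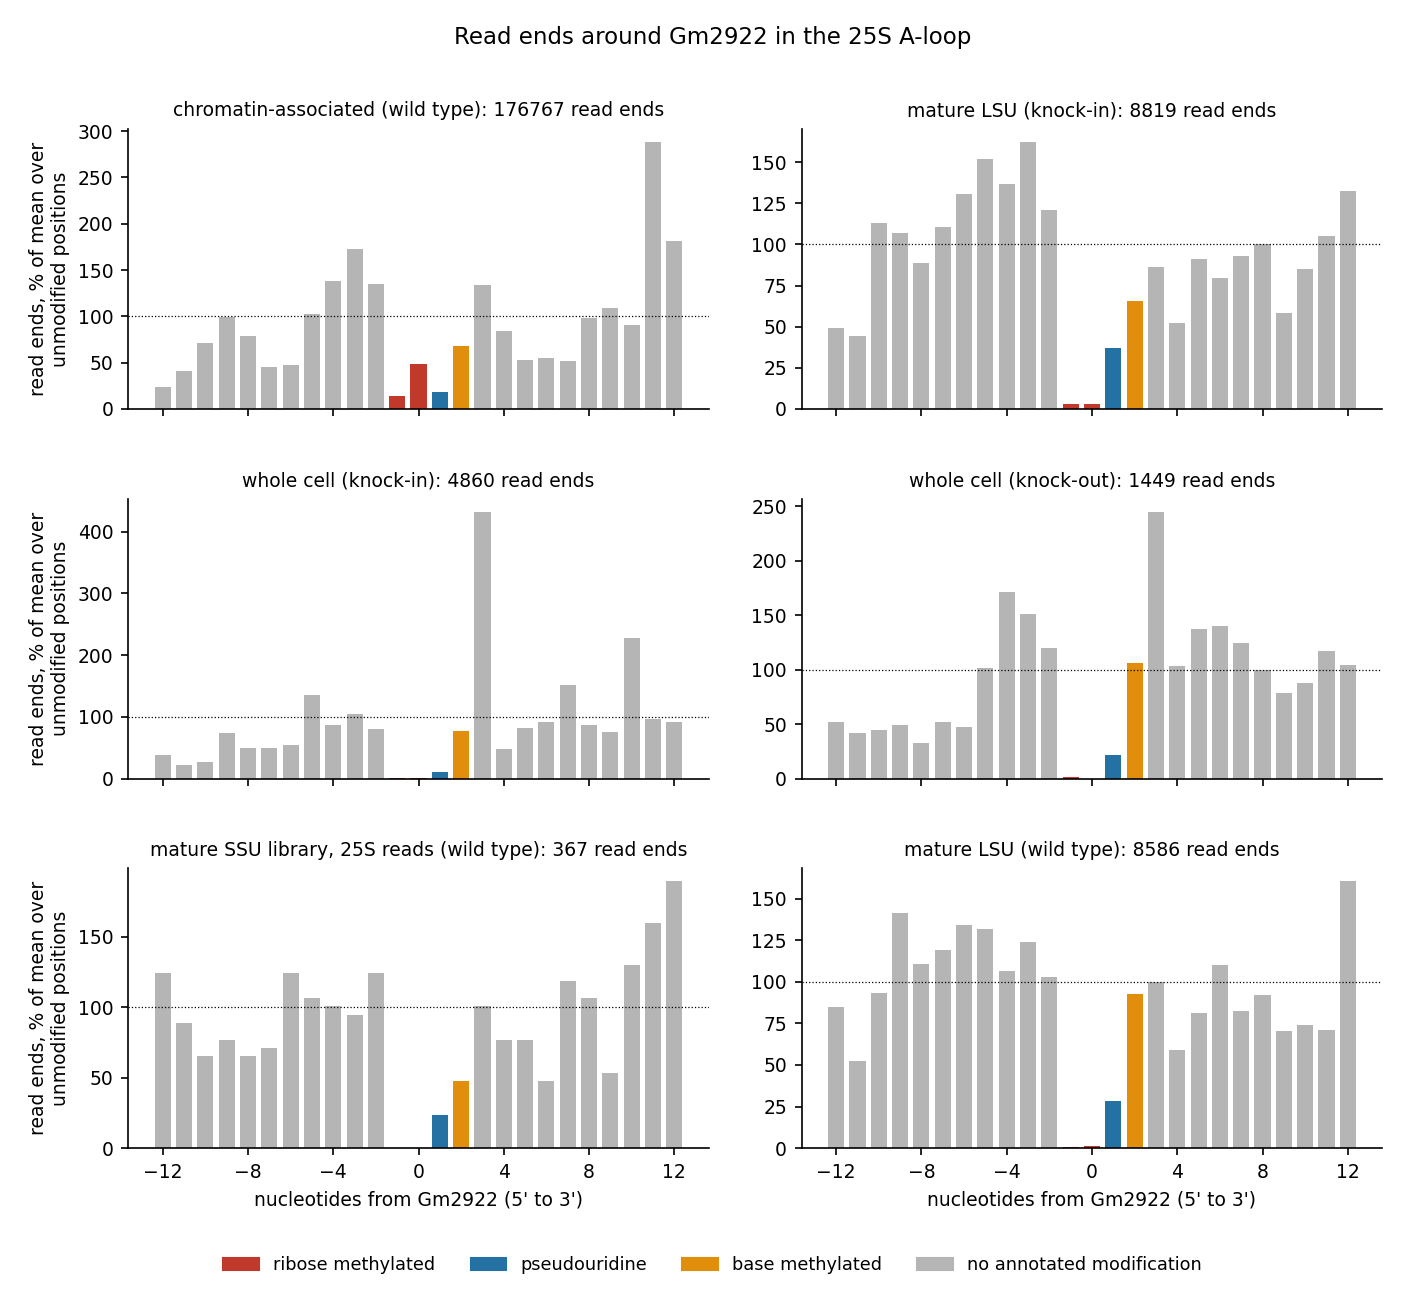
Read ends at the 25 positions around Gm2922 (offset 0) in 6 libraries, as a percentage of the mean over the 21 unmodified positions of each window. Gm2922 stands at 48.2% in chromatin and at no more than 3.26% in the other libraries, whereas Um2921 to its left is low in all of them (14.2% in chromatin).

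The score used from here on compares the read ends at a bond with those around it. It is 1 minus the ratio of the count to a flank mean, taken over 6 weighted positions on each side. It is near 0 for an unprotected bond and approaches 1 for a fully protected one. An intermediate score does not tell a mixture of methylated and unmethylated molecules from weaker protection of every molecule. Gm2922 scored 0.430 in chromatin (95% counting interval 0.411 to 0.448) and 0.984 in wild-type mature LSU rRNA (0.964 to 0.995). The difference, chromatin minus mature, was -0.554 (-0.576 to -0.527). In other words the bond carried 57.0% of the read ends of its flanks in chromatin and 1.56% in mature rRNA. The remaining libraries resembled mature wild-type rRNA. Gm2922 scored 0.963 (0.937 to 0.980) in knock-in mature LSU rRNA and 0.991 (0.967 to 0.999) in the knock-in whole-cell runs. It scored 1.00 in the knock-out, where the 3 read ends that a count of 0 allows would give 0.957, and 1.00 in the wild-type SSU library, where they would give 0.756 at a flank mean of only 12.3 read ends.

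Gm2922 stood at or near the low end of the 37 LSU sites in chromatin and well up the order in mature rRNA. In chromatin it had the lowest score of all 37 sites, below LSU-Gm867 (snR50) at 0.461, LSU-Um2347 (snR65) at 0.475 and LSU-Am2256 (snR63) at 0.602, and the median of the other 36 sites was 0.840. The last place depended on the way of scoring: Um2347 was lower with 3' ends alone (0.256), Gm867 with 5' ends alone (0.334) and Am2640 with the flank median, and Gm2922 was 3rd from the bottom with a flank free of modified positions. In wild-type mature LSU rRNA it ranked 12th from the top, with a median of 0.974 at the other 36 sites. It ranked 3rd in knock-in mature LSU rRNA and 1st in the combined knock-in whole-cell runs. Positions outside the list of modifications give a measure of what an intermediate score is worth. In chromatin 21.8% of 3309 unlisted LSU positions with complete flanks scored as high as Gm2922 or higher, whereas in wild-type mature LSU rRNA 0 of 3309 did. The 99th percentile of unlisted positions was 0.811 in chromatin, above which 21 of the 37 sites lay but not Gm2922, and 0.707 in wild-type mature LSU rRNA, above which 36 sites lay, Gm2922 among them.

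**Figure D2:**
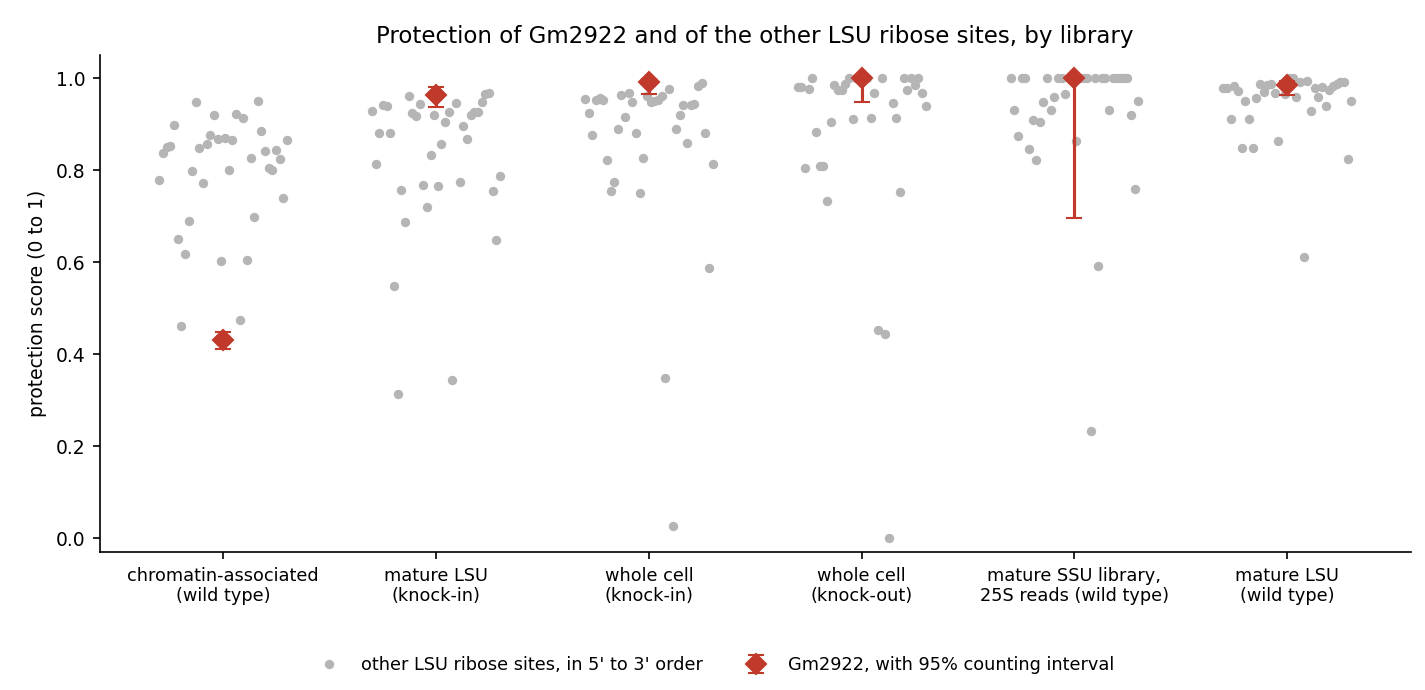
Protection score (0 to 1) of Gm2922 with its 95% counting interval (red) and of the other LSU ribose sites (grey, ordered along the rRNA) in 6 libraries. Gm2922 is the lowest site in chromatin at 0.430 and lies between 0.963 and 1.00 elsewhere, and the grey point at 0 in the knock-out is LSU-Gm2619, the site blocked in that strain.

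The fall at Gm2922 was set against the differences at the other sites. A site was called lower where the counting interval of the difference lay below 0 and the difference was past 0.329, which is 2 SD, over the 37 LSU sites, of run 1 minus run 2 of the knock-in whole-cell sample. The sources used here do not say whether the runs are separate preparations, so the limit may cover resequencing of 1 library only. By this criterion 3 of 37 LSU sites (8.11%) were lower in chromatin than in wild-type mature LSU rRNA: Gm2922, Gm867 (-0.488) and Am2256 (-0.364). The count was 13 with a limit of 0.164, which leaves Um2421 out of the SD, and 0 with a limit of 0.872, the size of the run difference at Um2421 and the largest of the 37. The other 36 sites had a median difference of -0.135 with an SD of 0.101, and 35 of them had a difference below 0. At the 18 SSU sites, compared between chromatin and wild-type mature SSU rRNA, the median was -0.0850 and the lowest value was -0.285 at SSU-Am100. With this score none of the 54 other ribose sites had a difference below that of Gm2922. The first place depended on the way of scoring. Gm867 fell below Gm2922 with 5' ends alone (-0.644 against -0.460) and with a flank free of modified positions. Am2640 fell below it with the flank median (-0.658 against -0.619) and with 12 unweighted positions free of modified ones. The sites beside Gm2922 in the order changed too. With 3' ends alone they were Um2347 (-0.421) and Am876 (-0.316). With a flank of 2 positions on each side they were Um2421 (-0.423) and Gm867 (-0.374). With a flank free of modified positions Am2256 (-0.325) did not reach the limit of 0.331 recomputed for that flank.

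**Figure D3:**
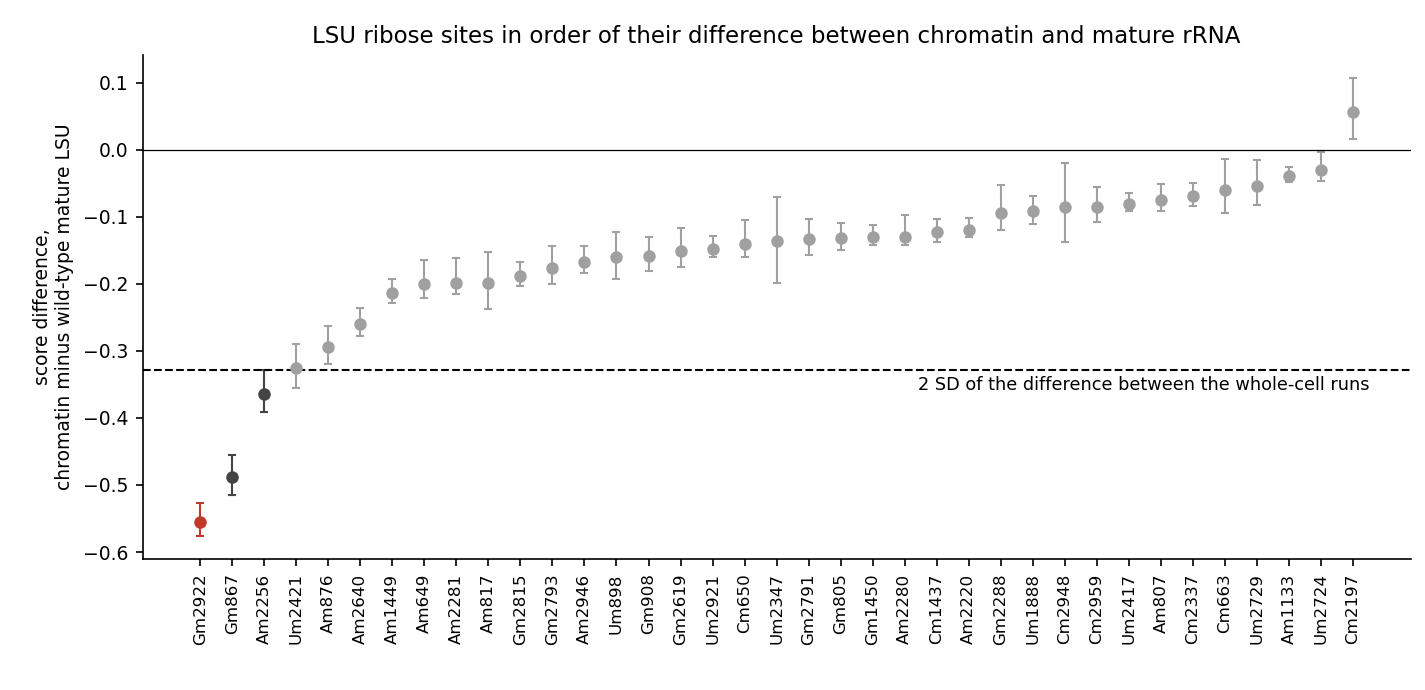
Score difference, chromatin minus wild-type mature LSU rRNA, at the 37 LSU ribose sites in increasing order, with 95% counting intervals and the limit of 2 SD of the run difference (dashed line). With 6 weighted flank positions on each side and both kinds of end, Gm2922 (red) is lowest at -0.554. A total of 2 further sites (dark grey) lie past the limit.

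The call at Gm2922 was also made against each of the other libraries. Chromatin minus the knock-out gave -0.570 (-0.589 to -0.514), chromatin minus the knock-in whole-cell runs -0.561 (-0.581 to -0.530), chromatin minus knock-in mature LSU rRNA -0.533 (-0.559 to -0.501) and chromatin minus the wild-type SSU library -0.570 (-0.589 to -0.265). These comparisons share the chromatin library and are not independent. With the same score Gm2922 was the lowest of the 37 sites in each of them. The number of sites called lower was 3 against the knock-out, 3 against the knock-in whole-cell runs and 3 against the wild-type SSU library (8.11% each), and it was 1 (2.7%), Gm2922 itself, against knock-in mature LSU rRNA. In that last comparison Gm867, which scored only 0.549 in knock-in mature LSU rRNA, differed by -0.0875. Am2256 differed by -0.318, just short of the limit of 0.329.

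The immediate neighbours of Gm2922 differed less. Um2921, the snR52 site, scored 0.843 (0.833 to 0.852) in chromatin, with 1117 read ends, and 0.991 (0.974 to 0.998) in wild-type mature LSU rRNA, with 3. Its difference of -0.148 lay close to the median of the LSU sites and was not called. Ψ2923, the snR10 site, scored 0.784 in chromatin, with 1464 read ends, and 0.634 in wild-type mature LSU rRNA, with 109. A pseudouridine is not a ribose methylation. The other 29 annotated LSU pseudouridines nevertheless had median scores of 0.727 in chromatin (range 0.270 to 0.906) and 0.692 in wild-type mature LSU rRNA (range 0.355 to 0.896). Unmodified uridines were not scored apart, so the part of the base itself in these scores was not tested. The difference at Ψ2923, 0.150, was not called and turned to -0.164 with 3' ends alone. The result is a dip with a raised middle in chromatin, where Gm2922 stands above both neighbours, and a dip that is deepest at Um2921 and Gm2922 in mature rRNA.

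A comparison among the 3 nucleotides needs no flank. Of the read ends at Gm2922 and Ψ2923 together, Gm2922 took 72.1% in chromatin (exact 95% interval 70.9 to 73.3) and 4.39% in wild-type mature LSU rRNA (1.44 to 9.94). It took 8.02% (4.34 to 13.3) in knock-in mature LSU rRNA, 8.33% (1.03 to 27.0) in the knock-in whole-cell runs and 0 of 14 read ends in the knock-out. Over both kinds of end, Gm2922 thus had the larger count of the pair in chromatin and the smaller one in these 4 libraries. The low shares rest on 5' ends, of which Gm2922 took 58.1% in chromatin, 6.33% in knock-in mature LSU rRNA and 4.39% in wild-type mature LSU rRNA. Of 3' ends it took 78.1% in chromatin and 3 of only 4 in knock-in mature LSU rRNA, and wild-type mature LSU rRNA had none at either position. In the wild-type SSU library it took 0 of 4, too few to place. Between Gm2922 and Um2921 the share was 77.2% (76.0 to 78.4) in chromatin, with 3.39 times as many read ends at Gm2922. In knock-in mature LSU rRNA it was 52.0% (31.3 to 72.2), and in wild-type mature LSU rRNA 62.5% of 8 read ends (24.5 to 91.5), where the low counts leave the order of both sites unsettled.

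Gm2922 was compared with sites of like setting. Of the 9 other methylated guanosines of the LSU rRNA, 8 scored above 0.461 in chromatin, the lowest was Gm867 at that value, and their median was 0.827. In wild-type mature LSU rRNA the 9 ran from 0.949 to 0.988, a range that includes the 0.984 of Gm2922. The LSU rRNA has 4 pairs of ribose methylations on adjacent nucleotides. In chromatin the 3' member of the pair minus the 5' member was 0.0597 for Am649 and Cm650, 0.0841 for Am1449 and Gm1450 and -0.0689 for Am2280 and Am2281, against -0.413 for Um2921 and Gm2922. In wild-type mature LSU rRNA the same quantity was -0.00656 for Um2921 and Gm2922 and no larger in size for the others.

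The sites of the peptidyl transferase region, from Gm2815 on, were also examined one by one. Gm2815 (snR38) scored 0.800 in chromatin and 0.988 in wild-type mature LSU rRNA. Am2946 (snR71) scored 0.825 in chromatin and 0.992 in wild-type mature LSU rRNA. For Cm2948 (snR69) the scores were 0.739 in chromatin and 0.825 in wild-type mature LSU rRNA, and for Cm2959 (snR73) 0.865 in chromatin and 0.950 in wild-type mature LSU rRNA. None of these 4 snoRNA-guided sites was called lower in chromatin, where 3 of all 37 LSU sites (8.11%) were. Gm867 (snR50) and Am2256 (snR63), which were called beside Gm2922, are snoRNA-guided as well. All 4 sites of the region had scores of at least 0.739 in chromatin, where Gm2922 had 0.430. The flank mean of Gm2922 was 6651 read ends in chromatin, where all LSU positions had a median of 3883 and a mean of 5444. In wild-type mature LSU rRNA the flank mean was 322, against a median of 333 and a mean of 362 over all LSU positions.

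Both kinds of fragment end showed the fall. In chromatin Gm2922 had 2879 RNA 3' ends and 912 RNA 5' ends, against 0 RNA 3' ends and 5 RNA 5' ends in wild-type mature LSU rRNA. With 3' ends alone it scored 0.393 (0.370 to 0.415) in chromatin and 1.00 (0.889 to 1.00) in wild-type mature LSU rRNA, where 3 read ends would give 0.910, and the difference was -0.607. With 5' ends alone it scored 0.522 (0.490 to 0.554) in chromatin and 0.983 (0.959 to 0.994) in wild-type mature LSU rRNA, and the difference was -0.460. The balance of the ends differed between the libraries in this stretch. Over the 21 unmodified positions 64.9% of the read ends were 3' ends in chromatin and 15.8% in wild-type mature LSU rRNA, although the share over the whole LSU rRNA was 50.5% in chromatin and 49.7% in wild-type mature LSU rRNA. The share in the window was 27.8% in knock-in mature LSU rRNA, 64.1% in the knock-in whole-cell runs and 47.3% in the knock-out. The part of this end balance in the difference at Gm2922 was not tested.

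**Figure D4:**
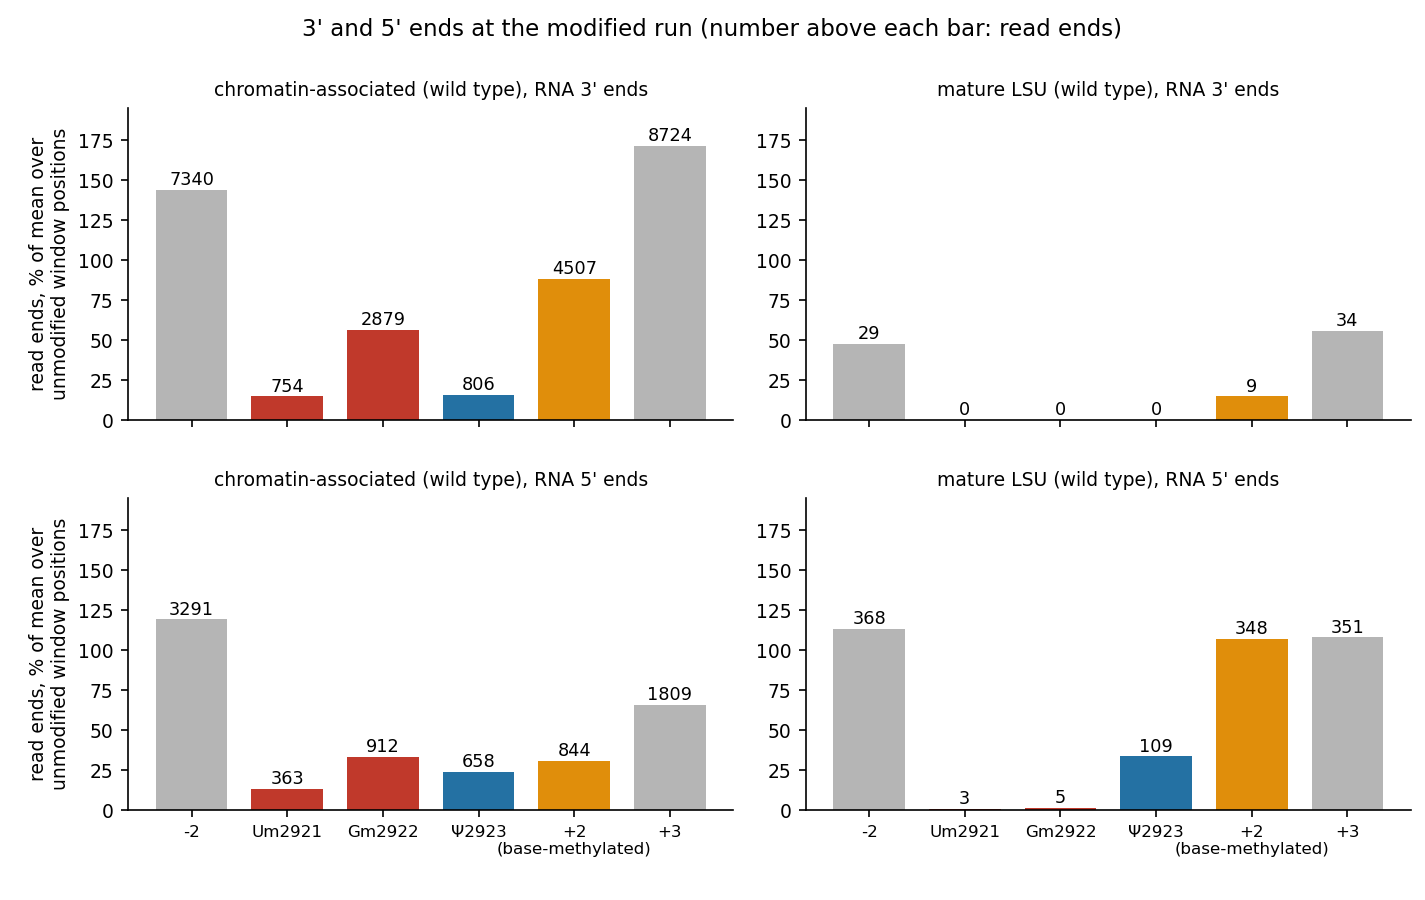
RNA 3' ends (top) and 5' ends (bottom) at Gm2922 and its neighbours (offsets -2 to 3) in chromatin (left) and wild-type mature LSU rRNA (right), as a percentage of the mean over unmodified window positions, with the read ends above each bar. In chromatin Gm2922 exceeds Um2921 and Ψ2923 in both kinds of end, whereas in mature rRNA it has 0 and 5 read ends.

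The unmodified positions of the window were uneven, and more so in chromatin than in wild-type mature LSU rRNA. They ran from 1831 read ends at position 2910 to 22623 at position 2933 in chromatin, and from 203 at position 2911 to 619 at position 2934 in wild-type mature LSU rRNA. The coefficient of variation was 0.610 in chromatin and 0.283 in wild-type mature LSU rRNA. It was 0.328 in knock-in mature LSU rRNA, 0.888 in the knock-in whole-cell runs and 0.521 in the knock-out. Uneven cleavage of the neighbours moves any such score, and its part in the difference at Gm2922 was not tested.

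The value in chromatin depended on which neighbours formed the flank. With 2 positions on each side, among them Um2921, Ψ2923 and the base-methylated position, the score was 0.151 in chromatin and 0.976 in wild-type mature LSU rRNA. With all annotated modified positions left out of the flank it was 0.547 in chromatin and 0.987 in wild-type mature LSU rRNA, and the difference was -0.440. In that setting Gm867 (-0.488) came before Gm2922 in the order of the 37 differences, and Gm867 and Um2347 had lower scores than Gm2922 in chromatin. Gm2922 was called lower under each of these flanks, and its score in wild-type mature LSU rRNA stayed at or above 0.976 in all of them. The size of the score in chromatin thus depended on the flank more than the direction of the difference did.

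**Figure D5:**
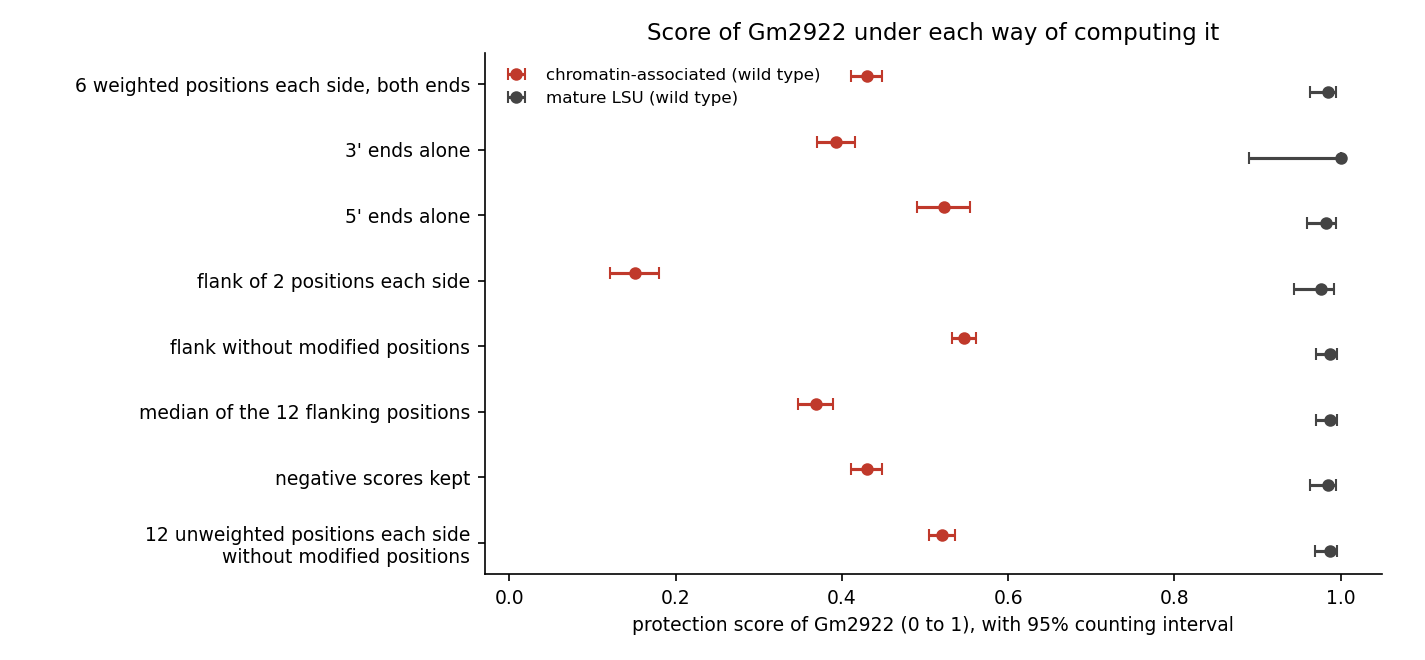
Score of Gm2922 (horizontal axis, 0 to 1) with 95% counting intervals in chromatin (red) and wild-type mature LSU rRNA (dark grey) under 8 ways of computing it. The chromatin value runs from 0.151 to 0.547 and the mature value from 0.976 to 1.00.

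The scores deposited by the authors also placed chromatin below the other libraries at Gm2922, while the order among those other libraries differed from that of the score above. In the authors' deposited table Score A of Gm2922 was 0 in chromatin and 0.944 in wild-type mature LSU rRNA, and Score B was 0.754 in chromatin and 52.8 in wild-type mature LSU rRNA. Both are statistics of their own and are not on the scale of the score above. Um2421 and Am2640 also had a Score A of 0 in chromatin in the authors' deposited table, and the median of the other 36 sites was 0.540. The authors' deposited Score A of Gm2922 in the other libraries was 0.882 in knock-in mature LSU rRNA, 0.930 in the knock-in whole-cell runs, 0.966 in the knock-out and 0.871 in the wild-type SSU library. For knock-in mature LSU rRNA the score tracks carry other names, and its Score A was assigned by the place and range of the track. For Um2921 the authors' deposited Score A was 0.492 in chromatin and 0.972 in wild-type mature LSU rRNA.

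The 2 strain comparisons asked whether the artificial guide 32 nucleotides away, or the blocked site farther upstream, went along with a change at Gm2922. Neither did so beyond the limit. From the 0.984 of wild-type mature LSU rRNA a rise could not pass the limit of 0.329, so only a fall larger than that could be called. For whole-cell RNA of either strain the reference was gel-purified rRNA, with no wild-type whole-cell sample, so strain and preparation cannot be told apart. Knock-in mature LSU rRNA differed from wild-type mature LSU rRNA by -0.0215 (-0.0499 to 0.00556) at Gm2922, with 2 of 37 sites (5.41%) called lower. These were Gm867 (-0.400), also called lower in chromatin, and Am876 (-0.598). The knock-in whole-cell runs differed by 0.00631 (-0.0200 to 0.0286), with 1 of 37 sites (2.7%) called lower, and the knock-out by 0.0156 (-0.0382 to 0.0363), with 2 of 37 sites (5.41%) called lower. For the wild-type SSU library, whose flank was thin, the difference from wild-type mature LSU rRNA was 0.0156 (-0.289 to 0.0363), with 1 of 37 sites (2.7%) called lower. The knock-in whole-cell runs differed from each other by 0.0104 (-0.143 to 0.0376) at this site. The header of the knock-in mature LSU file states mapping to the 35S precursor and a bar on mismatches within 3 nucleotides of the read end, neither of which the other headers mention, so that strain and read handling cannot be told apart there.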

How the data were processed

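Read ends of 6 yeast samples were analysed from 8 files. The submitters' processing notes name cutadapt 1.2 and Bowtie2 2.1.0, and the genome build was not given in the sources used here. Each deposited file held 6 tracks: 3 of unnormalized read-end counts made by the authors (3' ends, 5' ends, both) and 3 of scores computed by the authors, per the file headers. At all 5196 positions of both rRNAs the combined count was 3' plus 5' ends in each file, and the combined knock-in file was run 1 plus run 2.

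The score is 1 minus the read ends at a position over the mean of its left and right flank means (6 positions each, weights from 1 to 0.5 in steps of 0.1), with negative values set to 0. Intervals of 95% combine the exact Poisson interval of the count with the error of the flank (MOVER ratio and difference formulas). They were tested on simulated Poisson counts around an even flank only. That test does not show how they hold for the uneven flanks of these libraries. Shares have exact (Clopper-Pearson) intervals.

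With 1 sample per group no p-value was calculated. Sites named were Gm2922, its modified neighbours, the sites called beside it or next to it in order, the most extreme unmodified window positions, and the ribose sites from Gm2815 on. Same-base sites and adjacent pairs were added after the values were seen. The members, lists and criteria were chosen with earlier results of these data known. The list of ribose sites comes from general knowledge of yeast rRNA, and all 37 LSU sites are in the deposited annotation. Gene names come from the RefSeq R64 table. Python 3.11.15, numpy 2.4.6, scipy 1.17.1 and matplotlib 3.10.9 were used.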

Additional observations from a re-analysis of the deposited data

How the results depend on the processing

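The difference at Gm2922 between chromatin and wild-type mature LSU rRNA kept its direction in all 13 alternatives, between -0.825 (flank of 2 positions) and -0.440 (flank without modified positions), and its call in 12. Not all of these are separate checks of the direction. The value stays at -0.554 by construction under the other limits and was also unchanged with negative scores kept. The alternatives that change only the reference library share 1 chromatin score. Under a limit equal to the largest difference between runs (0.872, at Um2421), the same -0.554 was not called. The score in chromatin was 0.393 with 3' ends, 0.522 with 5' ends, 0.151 with a flank of 2 positions, 0.547 without modified positions, 0.368 with the flank median and 0.521 with 12 unweighted positions without modified ones, a setting chosen after the data were examined. In wild-type mature LSU rRNA it was 1.00 with 3' ends, and in the knock-in whole-cell sample 1.00 with 5' ends or run 1 alone. Gm2922 was 2nd instead of 1st in the order of differences with 5' ends and without modified positions (behind Gm867), and with the flank median and with 12 unweighted positions (behind Am2640, at -0.658 and -0.548). Its chromatin score was the lowest of the 37 with a flank of 2 positions and with negative scores kept, 2nd lowest with 3' ends, 5' ends and the flank median, and 3rd lowest without modified positions and with 12 unweighted positions. The count of sites lower in chromatin, 3, was 14 with 5' ends, 6 with the flank median and 5 with 12 unweighted positions. It was 2 without modified positions, 2 with negative scores kept and 1 against knock-in mature LSU rRNA. With the limit of 0.164 that omits Um2421 it was 13, and under the limit of 0.872 it was 0. The limit of 2 SD was recomputed for each way of scoring, so that the 14 with 5' ends reflect both the ends and a limit of 0.182 in place of 0.329. With 3' ends the uncalled differences from wild-type mature LSU rRNA were 0 for the knock-out and -0.0129 for the knock-in whole-cell runs at Gm2922, and -0.164 for chromatin at Ψ2923. The causes of these shifts were not tested. The flank of 12.3 read ends in the wild-type SSU library limits its value, and no library has a biological replicate.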
